A study of Mus musculus with 6 samples.

Results

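Adipokines are hormones and factors that white fat secretes, and 9 of their transcripts are described here: Adipoq, Lep, Retn, Cfd, Apln, Nampt, Agt, Rarres2 and Sfrp5. They were taken by name, matched from symbol to Ensembl identifier, out of 22040 genes measured by RNA sequencing of mouse white adipose tissue. The control group was 3 samples from mice given saline by intraperitoneal injection. The Rb1 group was 3 samples from mice given ginsenoside Rb1, a triterpene saponin of ginseng, by the same route at 14 mg/kg per day. The labels used here state no strain, age, depot, diet or duration. Nor do they say that the samples within a group are different animals, so a p-value covers only how far these libraries scatter, and part of that scatter may be technical.

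The adipocyte releases proteins that act on appetite, insulin action, vessels and immune cells, and adipokine output is read in obesity research as a sign of the state of the fat. Leptin (Lep) reports fat mass to the brain, adiponectin (Adipoq) favours insulin sensitivity and fatty acid oxidation, and resistin (Retn) in mice is a product of fat cells linked to insulin resistance. Adipsin (Cfd) is complement factor D, the serine protease that starts the alternative complement pathway by cleaving factor B. Apelin (Apln), chemerin (Rarres2), angiotensinogen (Agt), the NAD-forming enzyme Nampt and the Wnt antagonist Sfrp5 are made by fat among other tissues.

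The libraries held 15440339 to 24501446 counts. Mature adipocyte markers (15 genes such as Plin1 and Cidec, none of them an adipokine) took 3.34% to 3.72% of the counts in controls and 3.47% to 4.20% with Rb1, so the labelled tissue carried the transcripts of fat cells. Mesothelial markers (6 genes) took at most 0.000544% of the counts of any library, and mammary epithelial markers (6 genes) at most 0.000227%. Among them, Upk1b (mesothelial) and Krt14, Krt5 and Csn2 (mammary) had 0 counts in all 6 libraries. Others were detected at low counts, such as mesothelial Krt19 at 15 to 60 and mammary Krt8 at 7 to 30 per library. Skeletal muscle markers (10 genes) took 2.67% of the counts of control replicate 2, and 0.0340% and 0.0374% in control replicates 1 and 3. With Rb1 they took 0.00360% to 0.0159%, and all 10 had log2 fold changes below 0, against 6858 of 14093 tested genes. Values without control replicate 2 are given for Cfd, Lep and Agtr1a. Macrophage markers (10 genes) took 0.186% to 0.223% in controls and 0.107% to 0.167% with Rb1, and 9 of 10 had log2 fold changes below 0, against 6858 of 14093 tested genes. DESeq2 called 4 of the 10 lower, against 2.08% of all genes. The part of muscle and macrophage transcripts in the results below was not tested. In bulk tissue, fewer cells of a type and less RNA per cell cannot be told apart.

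Adipsin stood about 2-fold higher with Rb1 and was the adipokine with the largest difference, adiponectin and leptin had log2 fold changes of -0.16 and -0.33, and no adipokine passed the test over all genes. Rb1 was compared with control by edgeR's quasi-likelihood test on 14093 genes. The p-values were adjusted by Benjamini and Hochberg's method, and 0.05 was the threshold. All 9 adipokines were tested, and 0 of 9 passed, against 0.0071% of all genes. At an unadjusted p under 0.05 there was 1 adipokine of 9 (Cfd), against 11.6% of all genes. DESeq2 called 0 of 9, against 2.63% of all genes (0.559% higher and 2.08% lower), and limma voom called 0 of 9, against 0.0071%. The median log2 fold change was 0.02 for the 9 adipokines and 0.01 for all tested genes. Of the 9, 5 were above 0 and 4 below, against 7235 and 6858 of the 14093 tested genes.

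Cfd maps to chromosome 10, bases 79890853 to 79892655, plus strand, of the build GRCm38, Lep to chromosome 6, bases 29060220 to 29073877, plus strand, and Adipoq to chromosome 16, bases 23146536 to 23158028, plus strand. These were the 3 adipokines with the highest levels in both groups, and the promoters below show the DNA just upstream of each. Each window runs 5′ to 3′ from 250 bases before to 50 after the start site in RefSeq on GRCm38.p6, and capitals mark a match to any of 4 motifs searched on both strands. The windows are chr10:79890603-79890902 for Cfd, chr6:29059971-29060270 for Lep and chr16:23146286-23146585 for Adipoq, all on the plus strand.
Cfd: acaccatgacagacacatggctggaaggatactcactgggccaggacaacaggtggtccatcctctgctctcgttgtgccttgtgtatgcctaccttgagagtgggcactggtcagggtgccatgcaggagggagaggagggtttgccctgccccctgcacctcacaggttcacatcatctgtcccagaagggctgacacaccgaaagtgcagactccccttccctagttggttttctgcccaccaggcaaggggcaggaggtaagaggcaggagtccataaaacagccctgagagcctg
Lep: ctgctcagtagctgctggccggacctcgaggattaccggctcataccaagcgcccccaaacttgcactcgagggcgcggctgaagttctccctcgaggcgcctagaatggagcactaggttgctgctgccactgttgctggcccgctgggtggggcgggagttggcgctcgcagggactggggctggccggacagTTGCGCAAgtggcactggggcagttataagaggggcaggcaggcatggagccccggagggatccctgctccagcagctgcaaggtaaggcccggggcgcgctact
Adipoq: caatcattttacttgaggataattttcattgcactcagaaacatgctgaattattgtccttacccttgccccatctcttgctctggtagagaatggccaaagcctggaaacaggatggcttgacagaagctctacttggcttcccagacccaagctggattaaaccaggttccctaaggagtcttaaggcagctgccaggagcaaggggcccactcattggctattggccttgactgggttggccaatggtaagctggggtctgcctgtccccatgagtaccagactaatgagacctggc
The motifs were the C/EBP core TTGCNNAA, the nuclear receptor hexamer AGGTCA, that site repeated after 1 further base of any kind, which PPAR gamma can bind, and the TATA box TATAAA. The Lep window held the C/EBP core as TTGCGCAA, starting at base -55 from the start site. This run reads the same on both strands. The core was found in 10.8% of 32851 promoter windows of the same length. No match was found for the other 3 motifs in the Lep window, or for any of the 4 in the windows of Cfd and Adipoq. Windows were given for 8 of the 9 adipokines. Nampt held 1 hexamer (16.3% of all windows do) and Agt held 1 TATA box (13.6% of all windows do). The Nampt window, chr12:32820085-32820384, lies inside the mapped span of the gene given below, which begins at base 32819545. The RefSeq start site of Nampt thus lies downstream of that mapped start. The spaced repeat was in 0.0396% of all windows and in none of the 8. A match is a description of letters and not a site of binding.

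**Figure D1:**
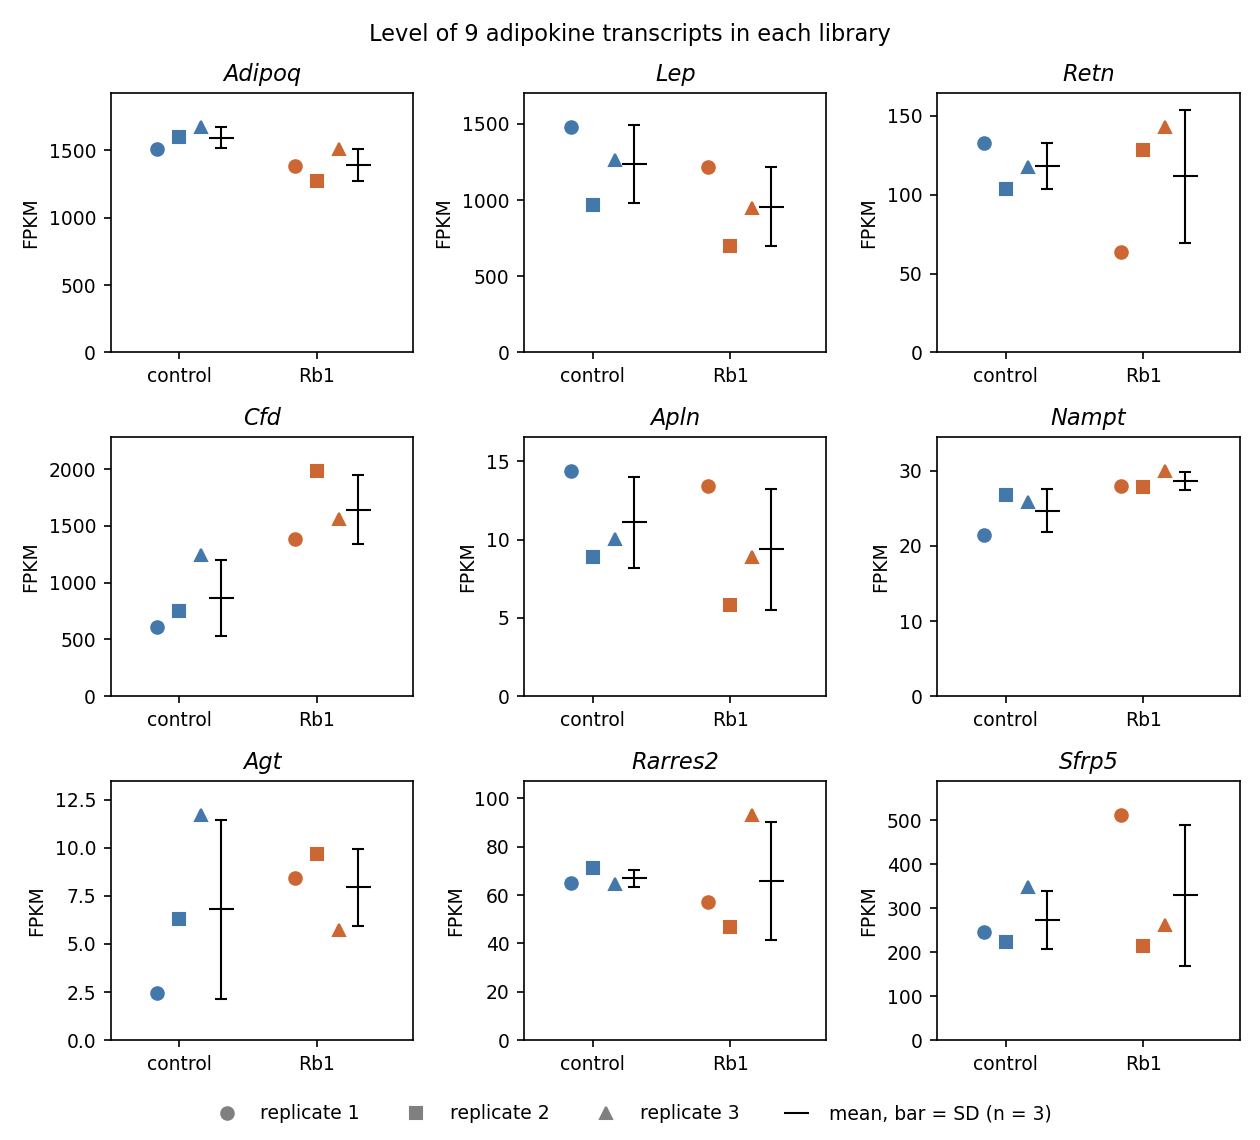
Level of each adipokine in FPKM (fragment count scaled to gene length and library total, as deposited) in the 3 control and 3 Rb1 libraries, with 1 point per library and the mean and SD beside them. Cfd is the panel where the groups stand apart most, at 612 to 1246 FPKM in controls and 1387 to 1983 FPKM with Rb1.

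Values of 3 libraries stand in the order of replicates 1, 2 and 3 throughout. Levels of Cfd in the controls were 612, 748 and 1246 FPKM, a unit that scales the count to gene length and library size. In the Rb1 libraries they were 1387, 1983 and 1561 FPKM. The 3 Rb1 values all lay above the 3 control values, and the nearest pair was control replicate 3 and Rb1 replicate 1. The group levels were 868 ± 334 FPKM (control) against 1644 ± 306 FPKM (Rb1; SD, n = 3 per group). In edgeR the log2 fold change was 0.96 (SE 0.31, 95% interval 0.21 to 1.70), or 1.94-fold, with an adjusted p of 0.322. DESeq2 gave 0.96 with an adjusted p of 0.0506. Leaving out 1 library moved the edgeR value between 0.74, without control replicate 1, and 1.34, without control replicate 3. Without control replicate 2, the library with the most muscle transcripts, it was 0.86.

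Adiponectin, the circulating hormone of the fat cell, was the most abundant adipokine in controls. Its levels were 1513, 1601 and 1672 FPKM in the controls, and 1384, 1275 and 1511 FPKM in the Rb1 libraries. On this scale the highest Rb1 value lay just under the lowest control value. On counts scaled with TMM factors, edgeR's correction for library composition, the groups overlapped, at 2292 to 2721 CPM (counts scaled to the library total) in controls and 2122 to 2523 CPM with Rb1. The edgeR log2 fold change was -0.16 (SE 0.14, 95% interval -0.49 to 0.17, adjusted p = 0.729). The lower bound of that interval is a 0.714-fold level. With 1 library left out the value ran from -0.24, without Rb1 replicate 3, to -0.11, without control replicate 3. The coefficient of variation of Adipoq (SD over mean, of FPKM) was 5.0% between control libraries.

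Leptin stood at 1478, 968 and 1261 FPKM in the controls. With Rb1 it stood at 1220, 702 and 950 FPKM in replicates 1, 2 and 3. The groups overlapped, control replicate 1 was highest and Rb1 replicate 2 was lowest. In edgeR the log2 fold change was -0.33 (SE 0.22, 95% interval -0.86 to 0.19, adjusted p = 0.631), and it was -0.47 without control replicate 2. Over the fits that left out 1 library it ran from -0.49, without Rb1 replicate 1, to -0.17, without Rb1 replicate 2, and it was -0.22 without control replicate 1. The ratio of leptin to adiponectin, both in FPKM, was 0.977, 0.605 and 0.754 in the controls and 0.881, 0.550 and 0.629 in the Rb1 libraries. Its group values were 0.779 ± 0.187 and 0.687 ± 0.173 (SD, n = 3 each), a difference smaller than the SD of either group. Lep and Adipoq thus both had lower group means with Rb1, and their ratio had overlapping groups.

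Resistin levels were 133, 103 and 118 FPKM in the controls, and 63.6, 128 and 143 FPKM in the Rb1 libraries. Rb1 replicate 1 was the lowest of the 6 and Rb1 replicate 3 the highest, so the Rb1 group spanned the control group on both sides. The edgeR log2 fold change of Retn was -0.02 (SE 0.31, adjusted p = 0.992). It was 0.29 without Rb1 replicate 1, -0.25 without Rb1 replicate 3 and 0.05 without control replicate 1. The gene maps to chromosome 8, bases 3655770 to 3660110, plus strand. In Rb1 replicate 1, the library low in Retn, the macrophage markers (0.107%) and the progenitor and stromal markers (0.324%) were also at their lowest share of the 6 libraries, and the endothelial markers (0.253%) at their highest. Their part in this value was not tested.

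Sfrp5, a secreted frizzled-related protein that holds back Wnt5a, was highest in the same library. It stood at 246, 224 and 348 FPKM in the controls and at 512, 214 and 261 FPKM in the Rb1 libraries. The groups overlapped, and in FPKM 1 Rb1 library lay above all controls and 1 below them. In TMM-scaled CPM the lowest library was control replicate 2, at 423.1 CPM against 424.8 CPM in Rb1 replicate 2. The edgeR log2 fold change was 0.29 (SE 0.33, adjusted p = 0.802), and it was -0.12 without Rb1 replicate 1. Sfrp5 maps to chromosome 19, bases 42197971 to 42202252, minus strand.

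Nampt, which makes nicotinamide mononucleotide for NAD salvage and is also secreted, had close values in the Rb1 libraries. Its levels were 21.4, 26.8 and 25.8 FPKM in the controls and 28.0, 27.8 and 29.96 FPKM in the Rb1 libraries. The 3 Rb1 values lay above the 3 control values by a narrow margin, at 142.6 CPM in Rb1 replicate 1 against 141.7 CPM in control replicate 2 with TMM scaling. In edgeR the log2 fold change was 0.25 (SE 0.14, 95% interval -0.07 to 0.58, adjusted p = 0.542), and it was 0.14 without control replicate 1. Nampt maps to chromosome 12, bases 32819545 to 32853349, plus strand. Cfd and Nampt were the 2 adipokines with non-overlapping groups in TMM-scaled CPM, both higher, against 7.73% of genes higher and 9.74% lower. In FPKM the count was 2 higher and 1 lower (Adipoq), against 5.48% and 10.5% of genes.

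Apelin, a peptide that acts on vessels and heart, had levels of 14.4, 8.90 and 10.02 FPKM in the controls and 13.5, 5.80 and 8.87 FPKM in the Rb1 libraries. For Apln the edgeR log2 fold change was -0.21 (SE 0.29, adjusted p = 0.840), and it was 0.02 without Rb1 replicate 2. The groups overlapped, and the highest and lowest libraries, control replicate 1 and Rb1 replicate 2, were also those of Lep. The apelin receptor Aplnr, a receptor of endothelial cells, stood at 28.2, 13.4 and 12.8 FPKM in the controls and at 26.3, 8.68 and 16.9 FPKM in the Rb1 libraries. Its highest and lowest libraries were again control replicate 1 and Rb1 replicate 2, with an edgeR log2 fold change of -0.03 (adjusted p = 0.989). Apln maps to chromosome X, bases 48025146 to 48034853, minus strand.

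Angiotensinogen, the precursor of the angiotensin peptides, was the adipokine with the fewest counts, 88 to 447 per library. Its levels were 2.43, 6.28 and 11.7 FPKM in the controls and 8.44, 9.66 and 5.74 FPKM in the Rb1 libraries. The control libraries alone spanned 4.81-fold, and the Rb1 values lay inside that span. For Agt the edgeR log2 fold change was 0.24 (SE 0.53, 95% interval -1.02 to 1.49, adjusted p = 0.907). It was -0.17 without control replicate 1 and 0.90 without control replicate 3. Agt maps to chromosome 8, bases 124556534 to 124569706, minus strand. Control replicate 1 was the lowest of the 6 libraries for Cfd, Nampt and Agt, and the highest for Lep and Apln.

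Chemerin, which draws immune cells and acts on adipocytes, stood at 65.2, 71.1 and 64.8 FPKM in the controls. With Rb1 it stood at 57.2, 46.9 and 93.2 FPKM in replicates 1, 2 and 3. The controls were close together, with a coefficient of variation of 5.24%, and the Rb1 libraries lay on both sides of them, with 37.0%. The edgeR log2 fold change of Rarres2 was 0.02 (SE 0.26, adjusted p = 0.988), and it was -0.35 without Rb1 replicate 3 and -0.03 without control replicate 1. Rarres2 maps to chromosome 6, bases 48569696 to 48572789, minus strand and shares exon positions with Lrrc61 on the other strand. No label states the strand setting of the counting, and without it reads over the shared positions cannot be assigned to either of these 2 genes. No other adipokine shares exon positions with an annotated gene.

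**Figure D2:**
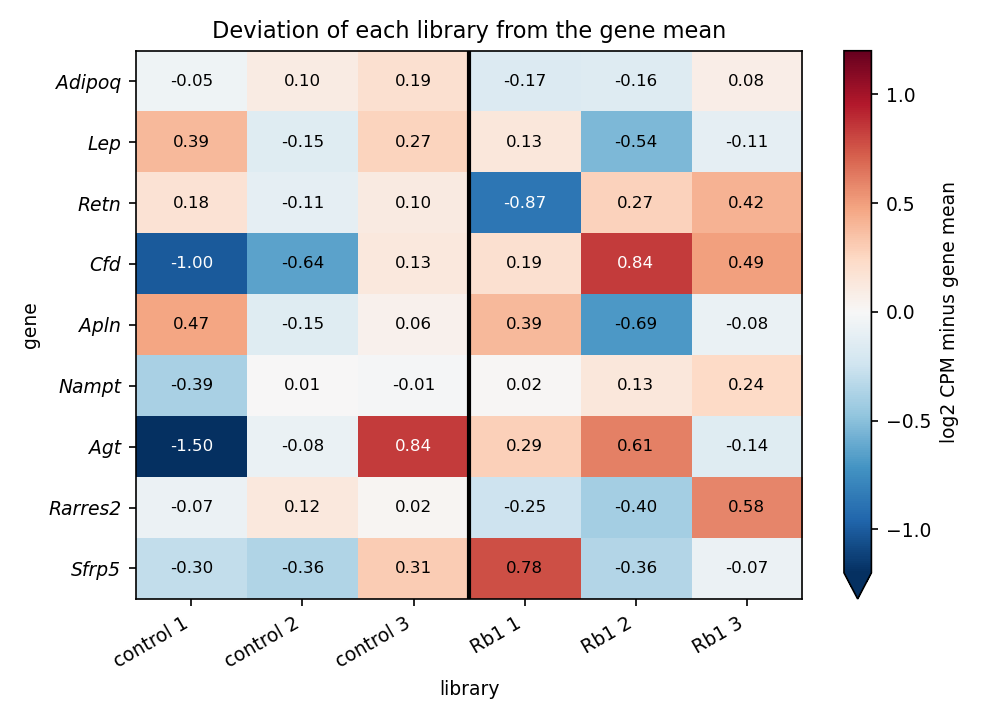
Deviation of each library from the gene's mean over the 6 libraries, in log2 of TMM-scaled CPM with a prior count of 2, for the 9 adipokines (rows) and the control and Rb1 libraries (columns, divided by the line). Red is above and blue below the gene mean, and the 3 largest departures are Agt at -1.50 and Cfd at -1.0 in control replicate 1 and Retn at -0.87 in Rb1 replicate 1.

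**Figure D3:**
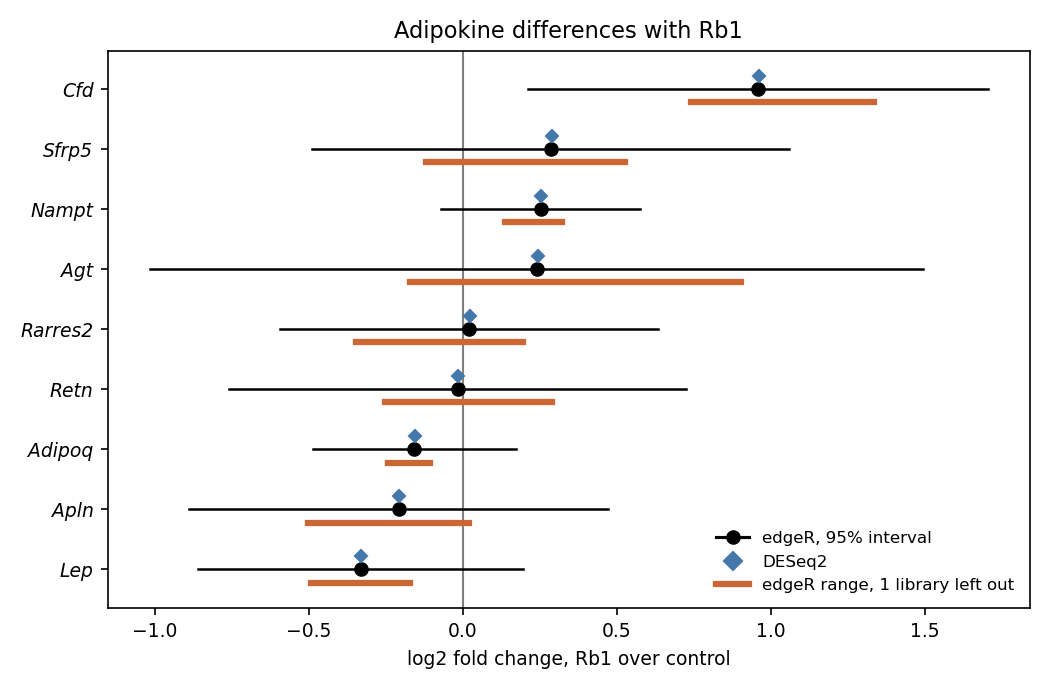
Log2 fold change of each adipokine, Rb1 over control, from edgeR with its 95% interval (black), from DESeq2 (blue diamond), and the range of the edgeR value over 6 fits that each left out 1 library (orange bar). Only the interval of Cfd, 0.21 to 1.70, lies wholly on 1 side of 0.

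Ordered by mean FPKM, the controls ran Adipoq (1595), Lep (1236), Cfd (868), Sfrp5 (272), Retn (118), Rarres2 (67.0), Nampt (24.7), Apln (11.1) and Agt (6.81). The ranges of Lep and Cfd overlapped, as did those of Apln and Agt, and no other neighbours in that order did. With Rb1 the order was led by Cfd (1644), then Adipoq (1390) and Lep (957), and the ranges of Cfd and Adipoq overlapped. The remaining 6 kept their order, with overlaps of Retn and Rarres2 and of Apln and Agt. Cfd thus stood behind Adipoq and Lep in controls and ahead of both with Rb1. Among all 22040 genes of the table its FPKM ranked 31, 31 and 19 in the controls and 18, 16 and 19 in the Rb1 libraries. Adipoq ranked between 17 and 20 in every library. Together the 9 adipokines took 0.794% (exact Clopper-Pearson 95% interval 0.790% to 0.797%, for counting error only) of the counts in the library with the smallest share, control replicate 2. They took 0.995% (0.991% to 0.999%) in the library with the largest, control replicate 3. The Rb1 libraries lay between, at 0.797% to 0.973%.

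The genes whose pattern over the 6 libraries was nearest were found by the root mean square difference of centred log2 CPM among 13304 genes of at least 1 CPM on average. For Cfd they were Syt14 (0.14) and Fam107a (0.16), where Cfd itself varied by 0.63 about its mean. Syt14 was at a low level, with 0.0985, 0.137 and 0.213 FPKM in the controls and 0.280, 0.301 and 0.250 FPKM in the Rb1 libraries, and its groups did not overlap. Fam107a stood at 1.82, 2.06 and 3.70 FPKM in the controls and at 3.11, 4.74 and 3.70 FPKM in the Rb1 libraries, with overlapping groups. For Lep they were Ptprk (0.05) and Tent5c (0.05), for Retn Aldh1l1 (0.09) and Etv1 (0.11), and for Adipoq Shank2 (0.03) and Ephb2 (0.04). Lep, Retn and Adipoq themselves varied by 0.31, 0.42 and 0.14 about their means. Shank2 was at a low level too, at 0.0511 to 0.0722 FPKM. Aldh1l1, a folate enzyme, stood at 23.5, 19.0 and 23.5 FPKM in the controls and at 13.6, 24.4 and 29.0 FPKM in the Rb1 libraries. These genes were picked for likeness to each pattern, so features they share with an adipokine are not separate findings. These likenesses rest on 6 libraries.

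Of 14 receptors and partners of the adipokines, 11 were tested and 0 passed in edgeR, DESeq2 or limma voom. At an unadjusted p under 0.05 there was 1 in edgeR (Wnt5a, lower), against 4.01% of genes higher and 7.54% lower. The list's median log2 fold change was -0.02. Wnt5a, the Wnt ligand that Sfrp5 holds, stood at 5.17, 4.12 and 5.05 FPKM in the controls and at 4.11, 3.06 and 3.76 FPKM in the Rb1 libraries. Its groups were non-overlapping by a narrow margin, with an edgeR log2 fold change of -0.35 (adjusted p = 0.388). In TMM-scaled CPM, 1 of the 11 had non-overlapping groups and was higher (Agtr1a), against 7.73% of all genes. A further 2 of 11, Wnt5a among them, were non-overlapping and lower, against 9.74%. Exons of Wnt5a overlap the predicted gene Gm2670.

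Adipor2, the adiponectin receptor with the higher FPKM, was at 79.7 ± 13.8 FPKM (control) against 100.8 ± 13.3 FPKM (Rb1; SD, n = 3 per group), an edgeR log2 fold change of 0.37 (adjusted p = 0.482). Adipor1 was at 22.4 ± 2.06 and 21.5 ± 2.14 FPKM (log2 fold change -0.02). Cdh13, the T-cadherin that binds adiponectin at the cell surface, was at 9.27 ± 1.58 and 11.1 ± 1.92 FPKM (log2 fold change 0.30). The groups of all 3 overlapped. The leptin receptor Lepr was near 1 FPKM in every library, at 0.647 to 1.06. Cmklr1, the signalling chemerin receptor, stood at 65.3, 57.3 and 85.2 FPKM in the controls and at 35.2, 83.8 and 72.3 FPKM in the Rb1 libraries, lowest in the library where Retn was lowest. The other chemerin receptors, Cmklr2 (listed as Gpr1) and Ccrl2, had log2 fold changes of 0.32 and -0.11. Agtr1a, the main angiotensin II receptor, was at 5.69, 0.600 and 3.84 FPKM in the controls and at 8.25, 6.34 and 6.04 FPKM in the Rb1 libraries. Its edgeR log2 fold change of 1.08 (SE 0.65, adjusted p = 0.592) was 0.58 without control replicate 2, the low library that also held the most muscle transcripts. Agtr1b, Agtr2 and Mas1 had 7, 15 and 3 counts over all 6 libraries and were not tested.

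Of 18 genes for the processing and output of adipokines, 17 were tested and 0 passed in edgeR, DESeq2 or limma voom, with a median log2 fold change of 0.12. At an unadjusted p under 0.05 there were 2 of 17 in edgeR, 1 higher and 1 lower, a share near the 11.6% of all genes. Socs3, the brake that leptin and cytokine signals induce, was lower, at 4.87 ± 0.395 FPKM (control) against 3.39 ± 0.697 FPKM (Rb1; SD, n = 3 per group, log2 fold change -0.49, adjusted p = 0.311). Enpep, the aminopeptidase that cuts angiotensin II, was higher, at 11.9 ± 0.670 and 13.5 ± 0.375 FPKM (log2 fold change 0.22, adjusted p = 0.424). Both had non-overlapping groups, and they were the 2 of 17 that did in TMM-scaled CPM, against 17.5% of all genes. Renin (Ren1) had 0 counts in all 6 libraries, which allows up to 0.122 to 0.194 CPM (3 counts per library). Cfb, the factor B that adipsin cleaves, was at 90.8 ± 8.11 FPKM (control) against 71.1 ± 15.5 FPKM (Rb1), an edgeR log2 fold change of -0.32 (adjusted p = 0.537), with groups that overlapped in TMM-scaled CPM and narrowly did not in FPKM. Its exons overlap Gm20547 on the same strand, so its counts are uncertain under any strand setting. C3, the central complement protein, was at 192 ± 42.4 and 183 ± 72.0 FPKM (log2 fold change -0.02). The log2 fold change of Cfd was above 0 and those of Cfb and C3 were below 0, and whether Cfd differed from them was not tested. Nmnat3, an enzyme of the step after Nampt, had a log2 fold change of 0.40 (adjusted p = 0.539).

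Of 35 other secreted factors of fat, 31 were tested and 0 passed in edgeR or limma voom, while DESeq2 called 2, both lower, against 2.08% of genes lower. At an unadjusted p under 0.05 edgeR had 4 of 31, all lower, against 7.54% of all genes. The list's median log2 fold change was -0.12. Haptoglobin (Hp), a haemoglobin-binding acute phase protein that fat secretes, had the smallest p of the list. It stood at 1127, 738 and 980 FPKM in the controls and at 331, 501 and 513 FPKM in the Rb1 libraries. All Rb1 values were below all control values. The edgeR log2 fold change was -1.02 (SE 0.25, 95% interval -1.61 to -0.44, adjusted p = 0.230), and DESeq2 called Hp with an adjusted p of 0.003057. Leaving out 1 library moved the edgeR value between -1.17 and -0.81. The log2 fold change of Hp was about the size of that of Cfd with the opposite sign. The macrophage markers were lower with Rb1 too, as given above, and their part in the values of this list was not tested.

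The other factor that DESeq2 called was Ctsz, a lysosomal cathepsin that is also secreted, at 267 ± 20.4 FPKM (control) against 199 ± 16.2 FPKM (Rb1; SD, n = 3 per group, edgeR log2 fold change -0.38, adjusted p = 0.292, DESeq2 adjusted p = 0.0405). Its exons overlap Nelfcd. Igf1, a growth factor, had an edgeR log2 fold change of -0.29 (adjusted p = 0.424) with non-overlapping groups. In TMM-scaled CPM, 1 of the 31 tested factors had non-overlapping groups and was higher, against 7.73% of all genes. Another 5 of 31, Hp and Igf1 among them, were non-overlapping and lower, against 9.74%.

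The 12 regulators of adipogenesis, several of which drive adipokine genes, were all tested and 0 passed in edgeR, DESeq2 or limma voom, with a median log2 fold change of 0.15. Cebpb, a C/EBP factor that acts early in adipogenesis, was at 25.7 ± 1.51 FPKM (control) against 18.2 ± 1.10 FPKM (Rb1; SD, n = 3 per group), an edgeR log2 fold change of -0.46 (adjusted p = 0.269, DESeq2 adjusted p = 0.102). Its exons overlap Tmem189. Ebf1, an early B cell factor that fat cells also use, was at 20.9 ± 3.21 and 29.4 ± 3.70 FPKM (log2 fold change 0.53, edgeR adjusted p = 0.287, DESeq2 adjusted p = 0.0568). These 2 of 12 had an unadjusted p under 0.05, against 11.6% of all genes, and the same 2 had non-overlapping groups in TMM-scaled CPM, against 17.5% of all genes. Cebpa, the C/EBP factor of mature fat cells, had a log2 fold change of 0.18 and Stat5a, a factor of hormone and cytokine signalling, of 0.20, with adjusted p of 0.631 and 0.539 in edgeR. Exons of Cebpa overlap Gm45091 and exons of Stat5a overlap Stat3.

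Mature adipocyte markers had a median log2 fold change of 0.27, with 12 of 15 above 0, against 7235 of 14093 tested genes. In edgeR 4 of 15 had an unadjusted p under 0.05, all higher, against 4.01% of all genes. None of the 15 passed in edgeR or limma voom, and DESeq2 called 2 higher (Pnpla2 and Aqp7), against 0.559% of all genes. The values of Adipoq (-0.16) and Lep (-0.33) lay below that median and the value of Cfd (0.96) above it. The differences from the markers were not tested.

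**Figure D4:**
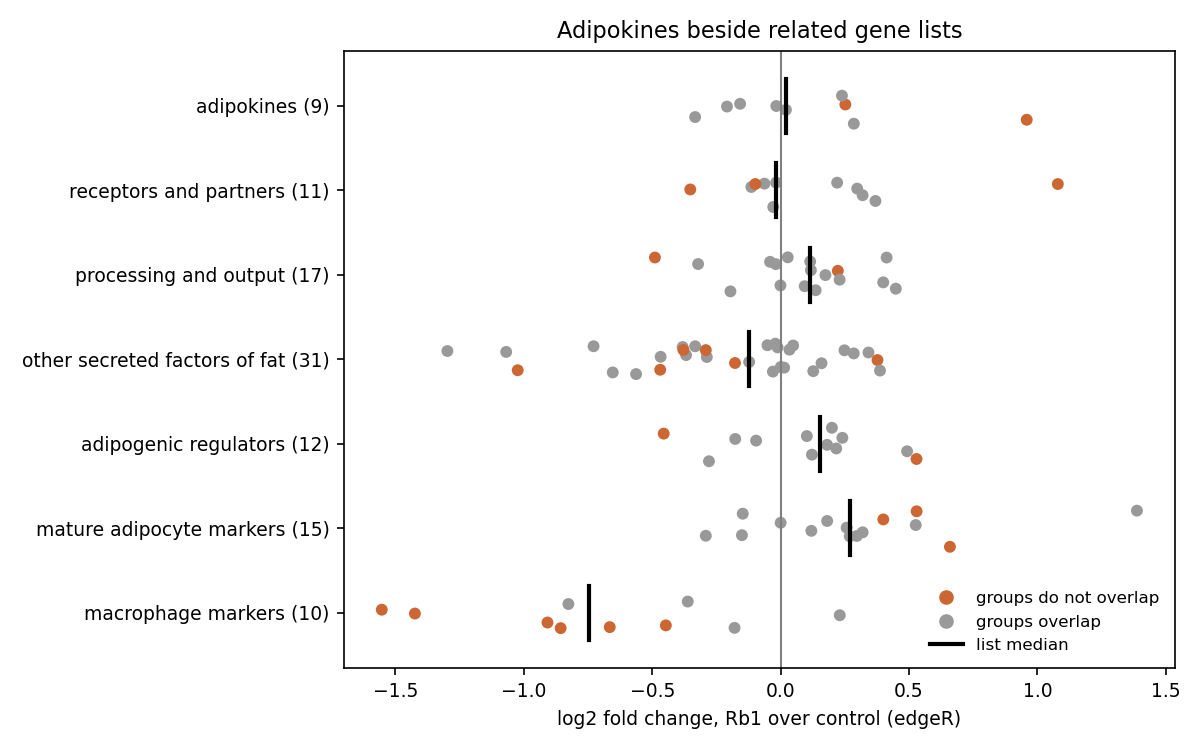
Log2 fold change, Rb1 over control, of each tested gene in the adipokine list, in the related lists and in 2 marker lists, with the number tested in brackets, the list median as a black line and genes with non-overlapping groups in orange. The adipokine median is 0.02, and the macrophage median lies at -0.75.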

How the data were processed

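White adipose tissue of 3 control and 3 Rb1 samples was sequenced, and groups follow the sample titles. CASAVA 1.8, TopHat2 2.0.6 and mm10 appear in the submitters' processing notes. No source used here states the counter, its annotation or its strand setting. Per the file headers, the authors deposited a count and an FPKM for every sample, here over 22040 genes listed by Ensembl identifier. The FPKM scales to the column total, checked on 13169 genes, so abundant transcripts in a library lower the FPKM of its other genes.

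Counts were tested with edgeR 4.0.16 in R 4.3.3 (TMM, minimum count 10, minimum total 15, no covariates). DESeq2 1.42.0 and limma 3.58.1 (voom), other scalings, no filter, a replicate block and fits without each library were alternatives. FPKM gave levels and CPM with a prior count of 2 the patterns. Standard errors came from the quasi-likelihood F statistic. Scripts were tested on simulated data for the same comparison. Genes simulated with a 2-fold difference were found at rates of 29% (edgeR), 60% (DESeq2) and 28% (limma voom). For a 4-fold difference the rates were 89%, 96% and 88%. Most simulated 2-fold differences were thus missed by edgeR and limma voom. False genes made up 58 of 214 DESeq2 calls, against 9 of 127 in edgeR and 9 of 125 in limma voom. The simulated counts used dispersions that edgeR estimated from these data, and differences were put into a small part of the genes. These false shares belong to that setting and need not hold for the real calls. No pair of libraries agreed within sampling noise (chi-square per degree of freedom at least 30.4).

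Symbols and GRCm38 coordinates came from GENCODE M21, and promoters from RefSeq. The symbol Cmklr2 was matched to its older name. Members and lists were chosen with earlier results of these data known. Named were all adipokines, the receptors Adipor1, Adipor2, Cdh13, Lepr, Aplnr, Cmklr1 and Agtr1a, and the 4 genes of smallest p in each related list, plus the 2 nearest patterns for 4 adipokines. Cmklr2, Ccrl2, C3, the untested receptors and Ren1 were named outside that rule, after their values were seen. A gene that the rule takes is not reported here.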

Additional observations from a re-analysis of the deposited data

How the results depend on the processing

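No adipokine passed under any alternative run, and the lowest adjusted p over the 108 adipokine values was that of Cfd in DESeq2 (0.0506). The count of all genes past the threshold was 1 in edgeR and 377 in DESeq2, and 1 to 4 when 1 library was left out. The related lists had 0 genes in edgeR and 2 in DESeq2. The cause of these differences was not tested. Of the 108 adipokine values, 99 kept their direction and 9 reversed, with none of the 9 past the threshold. Rarres2 was -0.0588 in limma voom. With 1 library left out, Retn ran from -0.25 to 0.29, Apln from -0.50 to 0.0207, Agt from -0.17 to 0.90, Rarres2 from -0.35 to 0.19 and Sfrp5 from -0.12 to 0.52. Adipoq, Lep, Cfd and Nampt kept their direction in all alternatives run, with Nampt between 0.14 and 0.32 and Lep between -0.49 and -0.17 when 1 library was left out. Judged on FPKM in place of TMM-scaled CPM, an alternative chosen after seeing the data, Adipoq gained non-overlapping groups (lower). The group ratio of leptin to adiponectin (Rb1 mean over control mean) was 0.882, and 0.757 to 1.01 with 1 library left out.

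Samples of the 2 groups share only a replicate number. The correlations of their deviations from the group means were 0.136, -0.109 and 0.018 for numbers 1, 2 and 3, and not every sample correlated best with its own number. With the replicate block, edgeR called 1 gene and no adipokine, and Rarres2 was -0.0467. Depth limits Agt most, with 88 counts in control replicate 1, and 3 libraries a group limit the precision of every value.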

Other observations

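The C1q/TNF-related proteins are secreted paralogs of adiponectin, and 6 of them were on the list of other secreted factors. They are described together here as a family chosen after their values were seen. C1qtnf1, whose exons overlap Gm11747, stood at 54.9, 44.7 and 59.3 FPKM in the controls and at 64.2, 71.8 and 52.0 FPKM in the Rb1 libraries. Its edgeR log2 fold change was 0.28 (adjusted p = 0.580). C1qtnf9 was at a level like that of C1qtnf1, 43.6 to 71.9 FPKM over the 6 libraries, with a log2 fold change of 0.03. C1qtnf12 was at 8.96 to 11.2 FPKM (-0.05) and C1qtnf6, whose exons overlap Gm49490, at 3.86 to 6.39 FPKM (-0.12). C1qtnf2 (0.34) and C1qtnf3 (-0.01) were under 2 FPKM in every library. None of the 6 passed in edgeR, DESeq2 or limma voom, and control and Rb1 values overlapped for each.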
